A study of Macaca mulatta with 16 samples.

Results

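Memory CD8+ T cells lacked a peak at 461 genomic regions where each of the other T-cell libraries of the study had one. The study mapped open chromatin by ATAC-seq, in which a transposase cuts accessible DNA, in blood T cells of 2 rhesus macaques (Macaca mulatta), with 10000 sorted cells per library. Memory CD8+, memory CD4+, naive CD8+ and naive CD4+ T cells were each taken from both animals after and before 2-hydroxypropyl-beta-cyclodextrin, a cholesterol-binding ring of sugars. The groups were thus memory CD8+ after, memory CD8+ before, memory CD4+ after, memory CD4+ before, naive CD8+ after, naive CD8+ before, naive CD4+ after and naive CD4+ before, with 1 library of each animal in each. The agent, Kleptose HBP as a 15% (w/w) solution, was given under the skin daily at 1 ml/kg, over a course of at most 120 days, and samples before it came from the same animals untreated. No animal was followed without treatment, so treatment and the passing of time cannot be told apart. The cells came from peripheral blood, and the labels used here state neither the sort markers nor the age of the animals.

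A region was made by merging peaks of all 16 lists that share at least 1 bp, and it counted as open in a library with a peak in it. Of 55449 regions, 461 were open in 0 of the 4 memory CD8+ libraries and in all of the other 12, and these are the regions described here. They were chosen by peak presence itself, so their presence and absence is a description and carries no test. A region without a peak had no call in that list, and the read depth behind the lists is unknown. Regions are given by position in rheMac10. Genes, promoters and motifs at them are not given, and the sorted populations were not checked by marker genes, because no annotation or sequence of that build was used.

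Memory T cells descend from naive T cells that have met their antigen. During that change many stretches of chromatin gain accessibility, among them enhancers of effector genes, and others that were accessible in the naive state lose it. CD8+ memory cells are on the whole cytotoxic and CD4+ memory cells mostly direct other immune cells, so the 2 lineages share part of these changes and differ in others. A region that is closed in one memory population and accessible in its naive counterpart can mark a regulatory element of the naive state, and one closed in a single lineage can mark an element of the other lineage.

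The memory CD8+ lists were not short. They held 39426 to 40744 peaks over 55.4 to 66.3 Mb, against 36307 to 42034 peaks over 51.4 to 63.6 Mb in the other 12. The 2 shortest lists were naive CD8+ of animal 1, with 37966 peaks after and 36307 before treatment. With both of these left out, an alternative added after the data were examined, 770 regions met the rule. Cutting each list to the 36307 peaks of highest area score left 457, and requiring peaks to cover 50% of a region left 414. On the autosomes alone there were 454. A stricter limit on summit height, a −log10 p of at least 3.42, left 296. Leaving out any 1 library gave 461 to 595, the most without naive CD8+ before treatment of animal 1.

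The step on each side of the rule was well filled. Regions open in all 12 other libraries and in 1, 2 or 3 of the 4 memory CD8+ libraries numbered 274, 490 and 725, and 24333 were open in all 16. Another 290 regions lacked memory CD8+ peaks and were open in 11 of the other 12. In 134 of these the one library without a peak was naive CD8+ before treatment of animal 1. The strongest region just outside, chr19:45902753-45907747, had a peak in 1 memory CD8+ library, after treatment in animal 2. On the strength scale defined below it stood at 4.89% there, against a mean of 67.1% over the 12 other libraries. On chromosome 9, the region at 119986131 to 119989249 lacked memory CD8+ peaks and missed the rule through memory CD4+ after treatment in animal 1. Its mean in the 11 libraries with a peak was 46.8%.

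The same rule applied to the other populations found fewer regions. It gave 141 missing only in naive CD8+ cells and 32 missing only in memory CD4+ cells, with naive CD4+ cells between these. Each list has its own depth, and the differences between these 4 counts were not tested.

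Absence in one animal or at one time was largely seen again in libraries that took no part in the choice. In animal 1 alone 1091 regions met the rule, and in animal 2 these were open in 29.4% after and 32.1% before treatment in memory CD8+ cells. The same 1091 were open in 84.5% and 87.2% in memory CD4+ cells, 94.8% and 94.1% in naive CD8+ cells, and 95.5% and 95.1% in naive CD4+ cells of animal 2. Memory CD8+ cells thus lay far below every other population of the animal that had not chosen the regions. Of the 1440 regions that met the rule in animal 2, memory CD8+ cells of animal 1 had a peak in 15.1% after and 17.2% before treatment. Its memory CD4+ cells had one in 85.5% and 79.4%, its naive CD8+ cells in 70.7% and 58.3%, and its naive CD4+ cells in 94.3% and 93.2%. The lower values of naive CD8+ cells there came from the 2 shortest lists. All 461 regions are among both sets by construction.

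Time gave the same picture. Choosing by the 8 libraries before treatment gave 757 regions. Read after treatment, they were open in 13.6% and 14.8% in memory CD8+ cells of animals 1 and 2, against 88.8% to 99.5% in the other 6 libraries. Choosing by the 8 libraries after treatment gave 1024 regions. Read before treatment, they were open in 14.9% and 19.1% in memory CD8+ cells, against 76.6% to 98.8% in the others. Here the same 2 animals gave both times, so this check repeats libraries and not animals. Between animals the memory CD8+ shares ran from 15.1% to 32.1%, so absence was seen again in most regions and not in all.

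**Figure D1:**
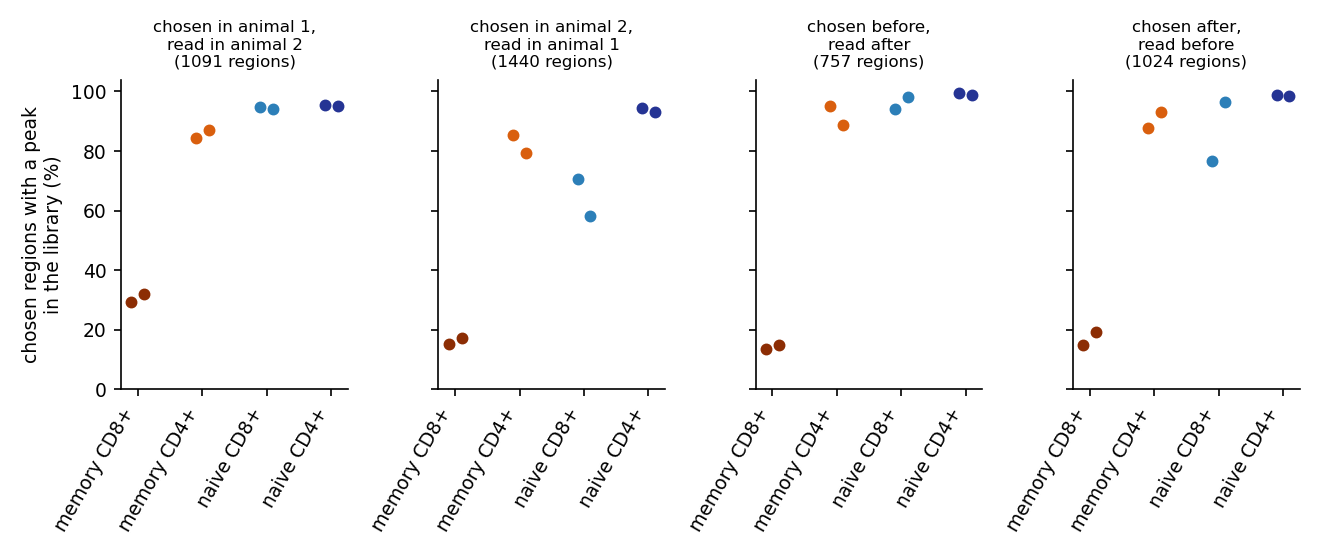
Share of regions with a peak (y axis, percent) in libraries that did not choose them, by population (x axis), each point 1 library (after treatment left of before in the first 2 panels, animal 1 left of animal 2 in the others). Memory CD8+ points lie between 13.6% and 32.1%, and the points of the other populations between 58.3% and 99.5%.

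The regions were weak peaks where they were open. Strength is given here on one scale, the percentage of the 24333 always-open regions whose area score, the authors' value for the area under a peak, is lower in the same list. The mean strength over the 12 libraries had a median of 17.4% (quartiles 10.8% and 26.6%), and it ran from 1.08% to 73.9%. It reached 50% in 7 of the 461 regions and lay under 10% in 102 of them. The 24333 always-open regions had a median of 49.3%. Regions missing only in one other population were weak as well. Their medians were 16.2% where naive CD8+, 12.6% where memory CD4+ and 20.5% where naive CD4+ cells alone lacked the peak. The shares under 10% were 23.4%, 43.8% and 15.3% in the same order, against 22.1% of the 461. Low strength is thus not particular to the regions missing in memory CD8+ cells. Thus most of the 461 lay well under the middle of the regions shared by all populations, and some lay next to the limit for calling a peak. Each library pools many cells, so a region open in fewer cells and one less open in each cell cannot be told apart.

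Strength depended on population. In the order after and before treatment in animal 1, then after and before in animal 2, the median strength of the 461 was 7.71%, 9.35%, 7.83% and 11.0% in memory CD4+ libraries. It was 14.0%, 11.9%, 18.4% and 19.2% in naive CD8+ libraries and 26.4%, 27.4%, 25.3% and 26.1% in naive CD4+ libraries. The medians of the 3 populations did not overlap. Median peak widths were 840 to 883 bp in memory CD4+ libraries, 743 to 970 bp in naive CD8+ libraries and 1038 to 1143 bp in naive CD4+ libraries. Median summit heights, as −log10 p, were 3.61 to 3.81 in memory CD4+, 3.55 to 4.18 in naive CD8+ and 4.37 to 4.51 in naive CD4+ libraries. Peaks of naive CD4+ cells at these regions were thus both the widest and the highest, while memory CD4+ and naive CD8+ overlapped in both measures. Widths and heights are not ranked within a list, and the lists differed in them at always-open regions too. Median widths there were 1595 to 1717 bp in memory CD4+, 1422 to 1566 bp in naive CD8+ and 1527 to 1717 bp in naive CD4+ libraries. Median summit heights there were 5.26 to 5.61, 5.10 to 5.70 and 5.62 to 5.78 in the same order. The part of the whole list in the widths and heights at the 461 was not tested.

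**Figure D2:**
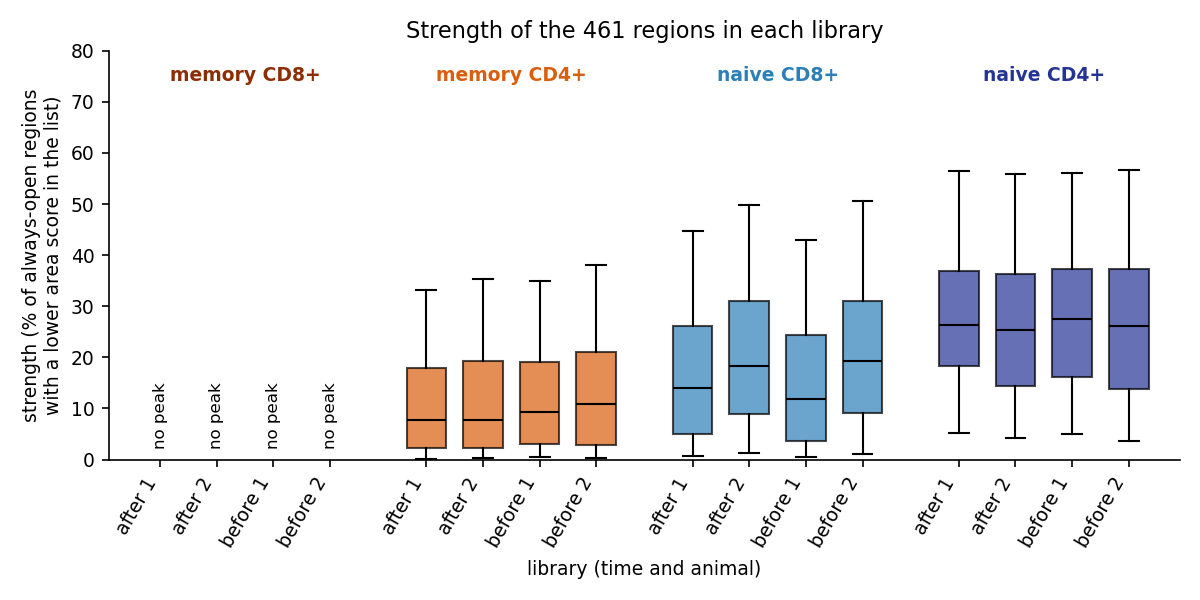
Strength of the 461 regions (y axis, percent of always-open regions with a lower area score in the same list) in each library (x axis, time and animal). Boxes are quartiles with the median, whiskers the 5th to 95th percentile of regions; medians run from 7.71% to 11.0% in memory CD4+, 11.9% to 19.2% in naive CD8+ and 25.3% to 27.4% in naive CD4+ libraries.

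Within a region the order of the populations was also uneven. Naive CD4+ cells had the highest mean and memory CD4+ cells the lowest in 262 of the 461 regions (56.8%), an order found in 16.3% of the 26283 regions open in all 12 libraries. In 24.1% of the 461 the order was naive CD4+, memory CD4+, naive CD8+, against 11.2% of all regions tested. In 14.5% it was naive CD8+, naive CD4+, memory CD4+, an order more common over all tested, at 29.8%. Memory CD4+ cells came first in 21 regions, in 19 of them with naive CD8+ cells last. Over all tested they came first with naive CD8+ last in 18.7% and with naive CD4+ last in 11.65%. No region had the order naive CD8+, memory CD4+, naive CD4+, against 12.4% of all regions tested. Naive CD4+ cells were therefore either first or second in 459 of 461 regions. Over all tested they came last in 12.4% with naive CD8+ first and in 11.65% with memory CD4+ first.

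The regions missing in one other population had the mirrored arrangement. Where naive CD8+ cells alone lacked the peak, median strength was 27.2% in memory CD4+, 11.6% in memory CD8+ and 5.38% in naive CD4+ cells. Where naive CD4+ cells alone lacked it, the medians were 40.0% (memory CD8+), 10.6% (naive CD8+) and 6.89% (memory CD4+). Where memory CD4+ cells alone lacked it, it was 16.1% in naive CD8+, 8.25% in memory CD8+ and 4.59% in naive CD4+ cells. In all 4 sets the population that differed in both lineage and state from the one without peaks was the strongest. For the 461 regions that population is naive CD4+, at 25.9%, while naive CD8+ cells had 15.3% and memory CD4+ cells 9.39%. The differences between the sets were not tested.

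The question whether memory CD4+ cells, which have the regions open, still differed there from naive CD4+ cells was put to limma over all 26283 regions open in the 12 libraries. Memory CD4+ cells had lower strength than naive CD4+ cells at 257 of the 461 regions (55.7%) and higher strength at 2, at a Benjamini-Hochberg adjusted p under 0.05. Over all regions tested 10.03% were lower and 7.63% higher. The median difference was −13.79 percentage points (quartiles −21.26 and −7.73), against −0.64 over all regions tested. The difference was below 0 in 440 of the 461 (95.4%), against 57.3% of all tested. The 4 libraries of each population did not overlap at 305 regions with memory CD4+ lower and at 2 with it higher, against 14.9% and 10.5% of all tested.

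All 4 pairs of libraries from one animal at one time gave the same direction. The median difference was −16.33 after and −14.09 before treatment in animal 1, and −13.60 after and −12.05 before in animal 2. Between 418 and 434 of the 461 regions lay below 0 in a pair. By animal the medians were −15.38 in animal 1 and −12.87 in animal 2. No region of the 461 passed the limma test for a difference between animals (52 at an unadjusted p under 0.05, 2 of 26283 called over all tested). That test took the libraries after and before treatment as replicates within each animal, so its spread is that between times. With so few libraries, the lack of a call does not show that the animals were alike. Because the rule asks for a peak in every memory CD4+ library, a region whose peak was lost there too could not be among the 461.

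The difference was graded with the number of memory CD8+ libraries that had a peak. Of the regions open in 1 of 4 memory CD8+ libraries 39.4% were lower in memory CD4+ than in naive CD4+ cells, of those open in 2 of 4 28.8%, in 3 of 4 23.0% and in all 4 8.07%. The median differences were −9.86, −7.33, −4.87 and −0.37 points. Values of memory CD8+ libraries took no part in this fit, but their peaks set the steps and, with the other lists, the always-open regions that the scale ranks against. On that scale each library has the same mean over the always-open regions, so differences there average out to none by construction. The steps also differed in strength: the median in naive CD4+ cells was 25.9% for the 461 and 21.0%, 24.1% and 18.2% for the next 3 steps, all below the regions open in all 16, whose middle sets the scale. The part of strength in the grading was not tested.

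**Figure D3:**
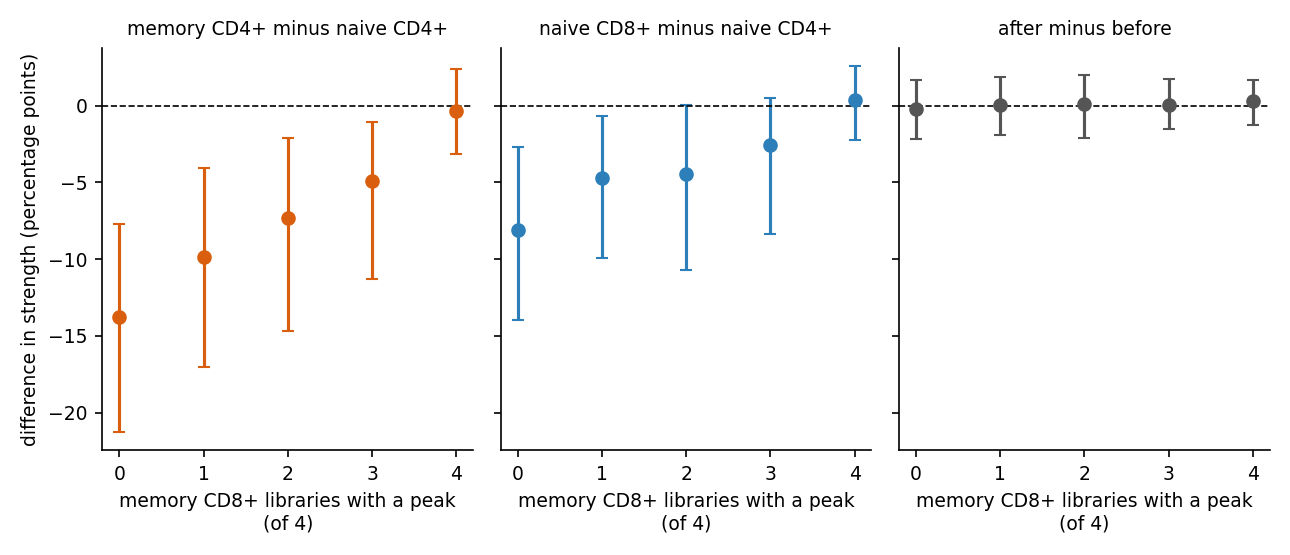
Median difference in strength (y axis, percentage points, bars are quartiles of regions) by the number of memory CD8+ libraries with a peak (x axis, 0 to 4; 0 is the set of 461), for regions open in all 12 other libraries. The medians run from −13.79 to −0.37 for memory CD4+ minus naive CD4+, from −8.10 to 0.40 for naive CD8+ minus naive CD4+, and from −0.24 to 0.29 for after minus before.

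The largest decrease in memory CD4+ cells was chr1:206082644-206088268, a region of 5625 bp. Its strength was 11.7%, 17.4%, 16.2% and 17.9% in memory CD4+ libraries, again after and before in animal 1, then after and before in animal 2. In naive CD4+ libraries it was 89.0%, 89.5%, 89.6% and 71.8%. All 4 naive CD4+ libraries were far above all 4 memory CD4+ libraries. The difference was −69.15 ± 7.35 points (SE, limma, adjusted p = 0.000855). Naive CD8+ libraries lay between the other populations, at 34.2%, 35.3%, 57.9% and 64.3%, and their difference from naive CD4+ of −37.03 ± 7.35 also passed (adjusted p = 0.0164).

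A second region of the same chromosome, chr1:215555586-215561880, was strong in both naive populations. It had 36.9%, 25.1%, 2.29% and 8.07% in memory CD4+ libraries, 89.2%, 54.3%, 96.9% and 94.1% in naive CD8+ libraries and 94.2%, 92.2%, 66.2% and 92.7% in naive CD4+ libraries. Both naive populations stayed above every memory CD4+ library, and they overlapped each other. Memory CD4+ minus naive CD4+ was −68.25 ± 10.89 points (SE, limma, adjusted p = 0.00445), while naive CD8+ minus naive CD4+ was −2.71 ± 10.89 and did not pass (adjusted p = 0.913). Summits of the libraries lay up to 5010 bp apart in it, the widest spread of any of the 461, so different libraries had their highest point at different places of the merged stretch.

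By area score, the region chr12:121887451-121890559 was nearly lost in most memory CD4+ libraries as well. The values were 0.177%, 2.04%, 1.96% and 9.86% in memory CD4+ libraries, 37.7%, 30.6%, 43.7% and 36.0% in naive CD8+ libraries and 49.0% to 54.2% in naive CD4+ libraries. None of the 3 populations overlapped another. The memory CD4+ difference was −47.73 ± 2.59 points (SE, limma, adjusted p = 6.57e-05). At chr3:4006979-4010383 memory CD4+ libraries had 7.05%, 1.86%, 1.48% and 0.945%, naive CD8+ libraries 60.1%, 39.9%, 51.9% and 55.9% and naive CD4+ libraries 52.2%, 46.2%, 48.9% and 48.2%. Here, too, most memory CD4+ values were close to the lowest that a called peak can have. The difference was −46.03 points (limma, adjusted p = 0.00027), and naive CD8+ minus naive CD4+ was 3.11, which did not pass (adjusted p = 0.646). On percentiles of summit height the memory CD4+ differences were smaller, −17.96 points on chromosome 12 and −10.86 on chromosome 3. Summits of the libraries lay up to 2123 bp apart in the first of these regions and 1371 bp in the second.

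The remaining 4 of the 8 largest decreases were chr10:54632961-54635728, chr5:106504586-106509451, chr1:65319241-65321497 and chr10:9076070-9079193. Their differences were between −46.08 and −43.92 points. The first differed between animals in memory CD4+ cells, with 5.29% and 5.23% in animal 1 and 42.5% and 40.4% in animal 2, while naive CD4+ libraries had 64.0% to 76.9%. On chromosome 5 the 4 memory CD4+ libraries were at 9.95%, 13.2%, 13.5% and 41.2% and the naive CD4+ libraries at 63.6%, 63.7%, 63.9% and 67.2%. It did not pass when area scores of several peaks were summed (adjusted p = 0.0902, the highest of the 20 settings run, the reported one included, with a lowest of 0.00123), and the other 7 passed in all 20. Summits of the chromosome 1 region at 65319241 lay within 22 bp in all 12 libraries, and an always-open region began 390 bp away.

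Regions that were higher in memory CD4+ cells were rare. At chr5:98180973-98183481 memory CD4+ libraries had 45.9%, 48.6%, 46.2% and 46.9%, and naive CD4+ libraries had 35.9%, 40.7%, 20.1% and 27.5%. The lowest memory CD4+ library stood above the highest naive CD4+ library, and the difference was 15.86 ± 3.82 points (SE, limma, adjusted p = 0.0245). Naive CD8+ libraries had 0.119%, 1.15%, 0.296% and 0.0205% there, next to the lowest possible, so the peak was very weak in naive CD8+ and not called in memory CD8+ cells. The region chr1:205266077-205267189 also passed, by 5.76 ± 1.54 points (SE, limma, adjusted p = 0.0365), but its libraries overlapped, at 14.2% to 17.3% in memory CD4+ and 3.02% to 16.8% in naive CD4+ cells. It reversed, to −2.07, on percentiles of summit height. At chr15:83797849-83798716 the difference on area scores was larger, 6.84 points, but did not pass (limma, adjusted p = 0.0627). The count of 2 was 0 without any one of the 4 memory CD4+ libraries, or without naive CD4+ after or before treatment of animal 2, and 1 without naive CD4+ after treatment of animal 1.

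Naive CD8+ cells, the naive counterpart of the cells that lack the peaks, were set against naive CD4+ cells. They were lower at 126 of the 461 regions (27.3%) and higher at 2 (limma, Benjamini-Hochberg adjusted p under 0.05), against 5.71% lower and 4.76% higher over all regions tested. With the animal as a block the counts were 197 lower and 6 higher, and the shares over all tested regions under that setting are not given. The median difference was −8.10 points (quartiles −13.98 and −2.70), against 0.26 over all tested. Below 0 lay 392 of the 461 regions (85.0%), against 46.1% of all tested. Libraries did not overlap at 177 regions with naive CD8+ lower and at 4 with it higher, against 8.83% and 9.60% of all tested.

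The difference was larger in animal 1, whose naive CD8+ lists were the shortest. Medians were −10.57 after and −10.99 before treatment in animal 1, and −5.74 after and −5.06 before in animal 2. With both naive CD8+ lists of animal 1 left out, 55 regions were lower. Without naive CD4+ after treatment of animal 1 there were 80, and on percentiles of summit height 80. The higher count was 4 without naive CD8+ before treatment of animal 1 and 1 without most other libraries. Counts over all tested regions under these settings are not given, so the changes are not shown to be particular to the 461. No region passed the test for a difference between the animals, again with the times as replicates (87 of 461 at an unadjusted p under 0.05). Over all 26283 there were 9. In both animals the median was below 0, but its size moved with the animal, and the part of list length in that was not tested.

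The region with the largest difference was chr11:6952770-6957802, and it was among the strongest peaks of both CD4+ populations. Naive CD8+ libraries had 7.77%, 1.40%, 37.1% and 32.4% (after and before in animal 1, then in animal 2), memory CD4+ libraries 92.6%, 97.4%, 93.3% and 97.1%, and naive CD4+ libraries 90.9%, 96.7%, 95.6% and 96.7%. CD4+ libraries of the 2 states overlapped there, and every naive CD8+ library was far below them. Naive CD8+ minus naive CD4+ was −75.28 ± 7.49 points (SE, limma, adjusted p = 0.000912). Memory CD4+ minus naive CD4+ was 0.15 ± 7.49 (limma, adjusted p = 0.993). Its nearest always-open region began 8390 bp away.

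The region chr13:96176386-96177721 was of the same kind. Naive CD8+ libraries had 5.22%, 2.61%, 2.80% and 0.427%, memory CD4+ libraries 44.2%, 41.1%, 39.0% and 42.4% and naive CD4+ libraries 42.1%, 39.8%, 34.8% and 38.8%. The CD4+ populations overlapped and naive CD8+ cells were close to having no peak. Naive CD8+ minus naive CD4+ was −36.10 ± 2.15 points (SE, limma, adjusted p = 0.000113), and the difference between the CD4+ populations was 2.82 ± 2.15 (limma, adjusted p = 0.418). At chr1:201344978-201348448 naive CD8+ libraries had 0.571% to 4.94%, memory CD4+ libraries 14.3% to 21.9% and naive CD4+ libraries 36.3% to 40.8%. This region fell in both comparisons, by 35.62 points in naive CD8+ and by 20.87 points in memory CD4+ cells (limma, adjusted p = 0.000113 and 0.000705).

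Others among the 8 largest decreases in naive CD8+ cells were chr17:58696888-58698967, chr17:29599265-29600984, chr13:12674446-12677634, chr13:35858271-35863773 and the chromosome 1 region at 206082644 described above. Apart from the last 2 of these, all of the 8 passed in all 20 settings. On chromosome 13 at 35858271 the naive CD8+ libraries spread from 2.53% to 56.8%, against 72.7% to 79.0% in naive CD4+ libraries, and it passed in 10 of 20 settings. Chromosome 1 at 206082644 passed in 15.

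Naive CD8+ cells were the strongest population at 67 of the 461 regions (14.5%), all with memory CD4+ cells last. Over all tested, naive CD8+ cells came first with memory CD4+ last in 29.8% and with naive CD4+ last in 12.4%. Of the 461, 2 regions passed the test as higher in naive CD8+ than in naive CD4+ cells. At chr5:8727813-8729514 they had 28.9%, 27.6%, 38.5% and 35.5%, memory CD4+ libraries 4.84%, 1.34%, 2.26% and 1.82%, and naive CD4+ libraries 16.9%, 13.0%, 6.87% and 1.84%. All 4 naive CD8+ values exceeded all of the CD4+ values. The difference from naive CD4+ cells was 22.94 ± 3.61 points (SE, limma, adjusted p = 0.00656) and passed in all 20 settings. The region chr12:667701-669879 had 44.7% to 56.7% in naive CD8+, 0.00822% to 7.49% in memory CD4+ and 28.8% to 40.3% in naive CD4+ libraries. Its 15.79 ± 3.90 points (SE, limma, adjusted p = 0.0386) passed in 7 of 20 settings. At chr3:2889991-2892092 the difference was larger, 17.65 points, but did not pass (limma, adjusted p = 0.26), with naive CD4+ libraries spread from 3.23% to 39.8%.

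**Figure D4:**
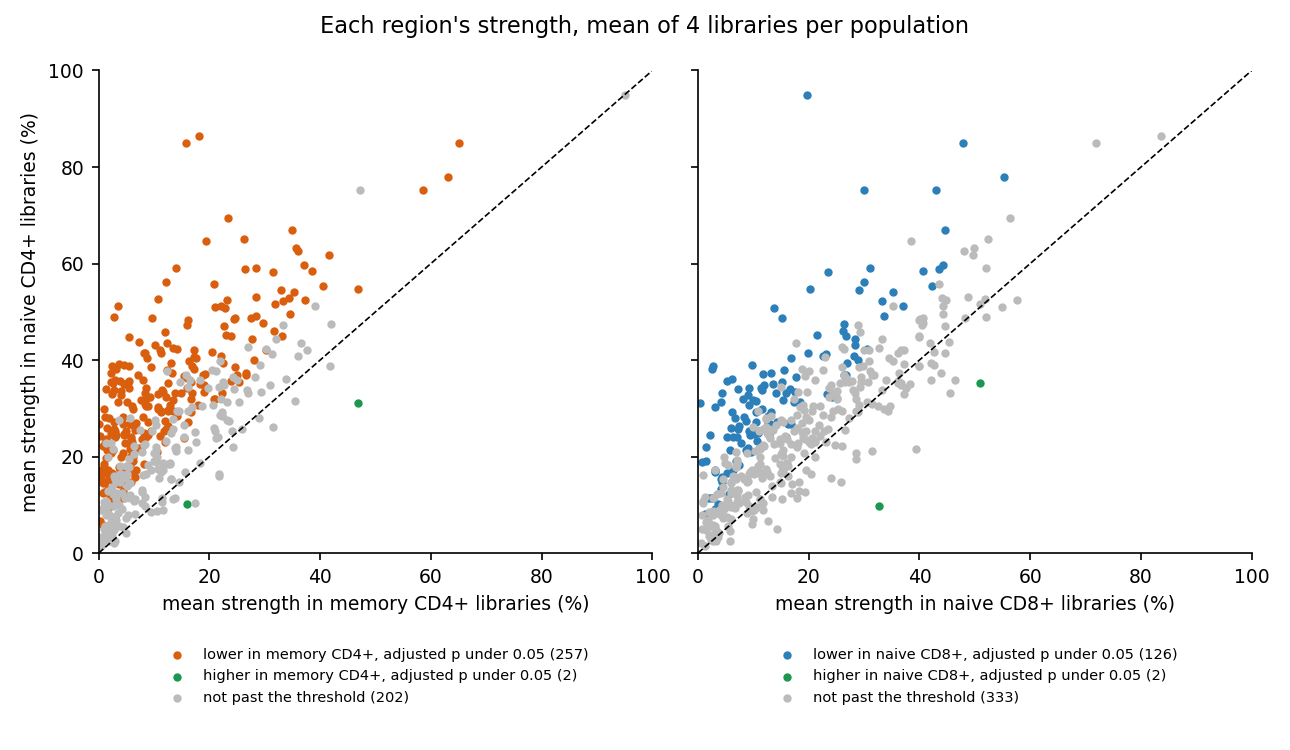
Mean strength of each of the 461 regions (4 libraries per population) in naive CD4+ libraries (y axis, percent) against memory CD4+ libraries (left, x axis) and naive CD8+ libraries (right, x axis), with the line of equality. Points above the line are lower in the population on the x axis: 257 passed the test on the left and 126 on the right, with 2 higher on each side.

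The lists of lower regions overlapped in part. Both memory CD4+ and naive CD8+ cells were lower than naive CD4+ cells at 92 regions, which is 35.8% of the memory CD4+ list and 73.0% of the naive CD8+ list, and 170 regions were in neither list. Both comparisons share the naive CD4+ libraries, and the part of that in the overlap was not tested. The share of all tested regions that was lower in both comparisons is not given here. Set directly against naive CD8+ cells, a comparison added after the data were examined, memory CD4+ cells were lower at 142 of the 461 regions and higher at 38 (limma, adjusted p under 0.05). Over all tested it was 17.4% lower and 13.1% higher. The median was −4.77 points against −0.93, and the libraries did not overlap at 143 regions with memory CD4+ lower and 34 with it higher, against 19.5% and 13.5%. The count of 38 was 23 without naive CD8+ before treatment of animal 1, 25 without naive CD8+ after treatment of animal 1 and 25 without memory CD4+ before treatment of animal 2. It was 22 with both naive CD8+ lists of animal 1 left out and 11 on percentiles of summit height. By animal the median was −2.87 in animal 1 and −6.73 in animal 2. The chromosome 11 region at 6952770 had the largest increase among the regions named here, 75.43 ± 7.49 points (SE, limma, adjusted p = 0.000264).

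Cyclodextrin dosing was the question of the study. None of the 461 regions passed the test of strength after against before treatment in the 12 libraries (limma, adjusted p under 0.05). Over all tested 0.00761% were higher and 0.0571% lower. At an unadjusted p under 0.05 there were 21 of the 461, against 2867 of the 26283 tested. With the animal as a block 0 of the 461 passed and 49 were at an unadjusted p under 0.05, with no count over all tested given. The median difference was −0.24 points (quartiles −2.15 and 1.70), against 0.27 over all tested. By population and animal the medians were −1.18 and −0.74 in memory CD4+ cells of animals 1 and 2, 1.16 and −0.14 in naive CD8+ cells, and 0.47 and −0.30 in naive CD4+ cells. These medians are small beside the differences between populations and do not share a sign. The treatment difference did not pass a test of a difference between populations at any of the 461 regions (7 for memory CD4+ and 5 for naive CD8+ against naive CD4+ at an unadjusted p under 0.05, with 5 and 4 called over all tested).

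The regions with the largest treatment differences, none past the threshold, were chr5:93130811-93133133 and chrX:104483177-104484359 and chrX:18115768-18117428 upward. The first had 24.5% and 24.7% after, against 13.1% and 3.41% before in memory CD4+ cells of animals 1 and 2. Its naive CD8+ libraries had 46.0% and 33.6% after, against 27.9% and 33.2% before, and its naive CD4+ libraries had 46.8% and 37.1% after, against 42.2% and 33.1% before. All 6 pairs were higher after, by 9.96 ± 3.21 points on average (SE, limma, adjusted p = 0.353). The second was 8.71 and the third 8.64 points higher (limma, adjusted p = 0.347 and 0.552). Downward they were chr19:666682-669340 (−11.05), chr14:58210176-58212100 (−9.88) and chr6:128688213-128689882 (−9.73). On chromosome 19 memory CD4+ libraries had 0.505% and 1.78% after, against 22.8% and 0.111% before, so the 2 animals did not move together there.

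By mean strength the highest of the 461 was chr16:3952031-3957285. Memory CD4+ libraries had 66.7%, 69.1%, 57.4% and 66.8%, naive CD8+ libraries 67.8%, 62.6%, 76.4% and 80.9% and naive CD4+ libraries 87.9%, 82.5%, 83.0% and 86.2%. A memory CD8+ peak began 1116 bp from its edge and an always-open region 206 bp from it. This strong and wide stretch thus ended close to chromatin that memory CD8+ cells did have open. Next were chromosome 11 at 6952770, chr6:77750935-77756096, chromosome 1 at 215555586 and chr10:88227758-88229918. The chromosome 6 region had means of 63.0% ± 8.79 in memory CD4+, 55.3% ± 6.63 in naive CD8+ and 78.0% ± 3.25 in naive CD4+ libraries (SD, n = 4 each), and its nearest memory CD8+ peak was 43320 bp away. The chromosome 10 region had 58.6% ± 6.84, 43.0% ± 7.73 and 75.2% ± 1.73 in the same order (SD, n = 4 each), and the nearest memory CD8+ peak was 146504 bp away. The 8 were completed by chr12:116940809-116942714, chromosome 13 at 35858271 and chromosome 10 at 54632961. The last of these stood alone: 1236005 bp separated it from the nearest memory CD8+ peak and 1479141 bp from the nearest always-open region.

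At the other end, chr12:125258979-125259553 had the lowest mean strength of 1.08% and was also the narrowest, at 575 bp. Its libraries ran from 0.0493% to 3.66%, so that its 12 peaks were all close to the lowest area score in their lists. Both chr3:155346564-155347420 and chr11:65840305-65841038 came next, with 1.75% and 1.89%. Peaks of these 3 regions thus lay next to the calling limit even in the libraries that had them. The next narrowest were chr4:46326135-46326734 and chr7:45992967-45993567, of 600 and 601 bp. The widest was chr18:74153645-74163996, of 10352 bp, where memory CD4+ cells had 3.37% and 4.34% in animal 1 and 33.4% and 32.2% in animal 2.

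Most of the 461 were single peaks with summits close together. Their merged width had a median of 1345 bp (quartiles 1069 and 1785), against 2229 bp for the regions open in all 16, which were also stronger. Summits of the 12 libraries lay within 200 bp of each other in 289 of the 461. In 57 regions some library had over 1 peak. Regions missing only in naive CD8+ cells had a median width of 1475 bp.

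The nearest memory CD8+ peak lay a median of 9.96 kb away. It was within 1 kb of 32 regions, within 5 kb of 166 and within 50 kb of 385, and the closest was 82 bp off. The nearest always-open region was a median of 15.3 kb away, against 9.45 kb from one always-open region to the next, and it was within 50 kb for 74.8% of the 461 and for 86.5% of the always-open. The 461 thus lay farther from always-open regions than these lay from each other. This was shared with regions open in 1, 2 or 3 of 4 memory CD8+ libraries, at medians of 15.5, 16.1 and 11.3 kb. Regions missing only in memory CD4+ cells had 15.3 kb, those missing only in naive CD8+ cells 8.65 kb and only in naive CD4+ cells 9.86 kb. Few of the 461 lay at the very edge of a memory CD8+ peak.

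They were spread over all chromosomes in the lists, unevenly for the number of regions tested there. Chromosomes 3, 6 and 14 held 34 each. Per 100 regions tested, the most were on chromosome 17 with 3.40, chromosome 12 with 3.03 and chromosome 6 with 2.88. The fewest were on chromosome 19 with 0.565 and chromosome 15 with 0.820. On X there were 7, or 1.52% of the 461, against 2.63% of all tested.

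Some of the regions were neighbours of each other. At a largest gap of 50 kb, 40 groups of 2 or more held 87 of the 461 (18.9%), and 7 of the groups had 3 members, the most found. At 20 kb there were 25 groups, and at 100 kb 51 groups, the largest of 5. Of the regions open in 1 of 4 memory CD8+ libraries 17.2% lay within 50 kb of one of the 461, of those in 2 of 4 10.2%, in 3 of 4 7.86% and in all 4 4.11%. Of the regions missing only in naive CD8+ cells the share was 0.709%, of the 32 missing only in memory CD4+ cells 6.25%, and of those missing only in naive CD4+ cells 0. The share thus fell with the number of memory CD8+ libraries that had a peak, as a description and without a test.

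In 6 of the 7 groups of 3, memory CD8+ cells lacked a peak at further regions beside the 3 members. Of all 55449 regions 21.5% had no memory CD8+ peak. At chr3:168922170-168994416 all 8 regions of the stretch had none, and at chr6:54430250-54461405 all 6 had none. The groups chr6:54278692-54316131 and chr14:51772213-51813559 lacked it in 5 of 8 and 4 of 4 regions. At chr5:106395929-106439284 it was 8 of 9, at chr11:4094754-4142639 5 of 6, and at chr8:12184996-12196124 3 of 4. None of the 7 stretches held a region open only in memory CD8+ cells. The groups were picked for holding 3 members, so these counts start from 3 by construction. All 3 members of the first chromosome 6 group, at 54278692, were also lower in memory CD4+ than in naive CD4+ cells, and none of the 3 on chromosome 8.

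Regions of other kinds lay nearby in uneven numbers. A region open only in memory CD8+ cells (944 in all) lay within 50 kb of 7 of the 461 (1.52%), against 6.86% of the always-open regions. A region open in all 8 naive and in 0 of 8 memory libraries (369 in all) lay within 50 kb of 33 of the 461 (7.16%), against 2.96% of the always-open regions. The 461 thus less often had a region open only in memory CD8+ cells nearby than the always-open regions did. They more often had one open only in naive cells nearby, and neither difference was tested. The share near a region open only in memory CD8+ cells was also low in the next steps. It was 3.28%, 4.49% and 2.21% of regions open in 1, 2 and 3 of 4 memory CD8+ libraries. The part in this of the larger distance of the 461 to always-open regions was not tested.

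Always-open regions near the 461 are not among them, and their values chose nothing. They have a peak in all 16 libraries, so their strength can be compared in memory CD8+ cells, which was done with limma over the 24333 such regions after the data were examined. Within 50 kb of the 461 there were 1000, of which 358 (35.8%) were lower in memory CD8+ cells than in the mean of the other 3 populations and 94 (9.40%) higher. Over all 24333 it was 16.6% lower and 15.9% higher. The count of 358 was 308 to 362 without any 1 library.

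The share depended on distance. At a gap of up to 5 kb 51.0% of 153 were lower and 7.84% higher, with a median difference of −5.76 points. From 5 to 20 kb 36.2% of 304 were lower, from 20 to 50 kb 31.3% of 543, and from 50 to 100 kb 24.6% of 849. Beyond 100 kb, up to 500 kb, it was 17.0% of 4233, and farther than that 15.1% of 18251, with medians of −0.22 and −0.03. The decline with distance was seen at each step. Set against naive CD8+ cells alone, memory CD8+ cells were lower at 41.8% of those within 5 kb and at 15.8% beyond 500 kb. In memory CD4+ against naive CD4+ cells the same 1000 regions were lower in 14.4% and higher in 5.70%, against 8.07% and 8.19% of all always-open regions. Whether the decline in memory CD8+ cells exceeds that in memory CD4+ cells was not tested.

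**Figure D5:**
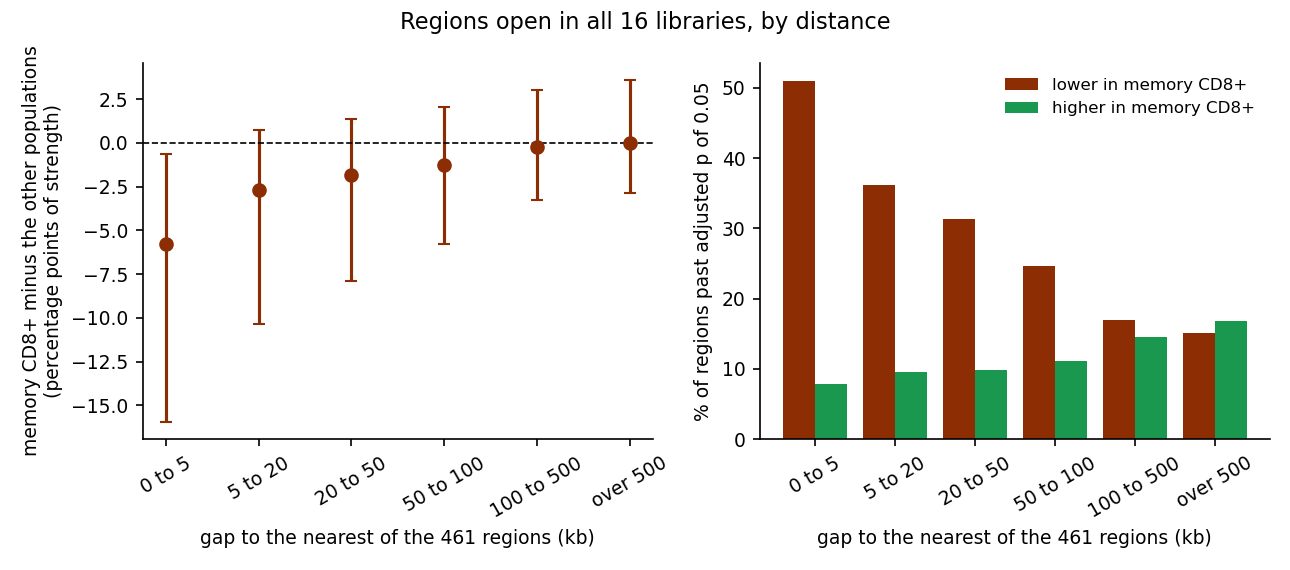
Regions open in all 16 libraries by their gap to the nearest of the 461 (x axis, kb). Left, median difference in strength of memory CD8+ minus the mean of the other populations (y axis, percentage points, bars are quartiles), from −5.76 within 5 kb to −0.03 beyond 500 kb; right, share past an adjusted p of 0.05 (y axis, percent), lower in memory CD8+ from 51.0% to 15.1%.

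Single neighbours had large differences. At chr1:215568801-215573617, 6920 bp from the region at 215555586, memory CD8+ libraries had 0.872% ± 0.810, memory CD4+ 38.7% ± 14.7, naive CD8+ 65.0% ± 2.30 and naive CD4+ 72.2% ± 11.0 (SD, n = 4 each). The peak next to one of the strongest of the 461 was thus nearly lost in memory CD8+ cells too. The difference was −57.75 ± 4.62 points (SE, limma, adjusted p = 9.42e-06). At chr9:124566656-124572429 memory CD8+ libraries had 4.28% ± 3.50, memory CD4+ 72.9% ± 3.84, naive CD8+ 49.5% ± 10.1 and naive CD4+ 77.6% ± 6.83 (SD, n = 4 each). Memory CD4+ cells kept that peak at a strength within the spread of naive CD4+ cells, and memory CD8+ minus the mean of the others was −62.40 ± 3.27 points (SE, limma, adjusted p = 8.74e-07). Chromosome 3 had a pair of such neighbours, chr3:34158335-34162618 and chr3:34167922-34171091, both near chr3:34120822-34123511, with differences of −57.63 and −56.32 points.

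Higher neighbours existed as well. At chr11:6935688-6940818, 11951 bp from the region at 6952770 that was strong in both CD4+ populations, memory CD8+ libraries had 68.1% ± 5.28, memory CD4+ 25.9% ± 11.9, naive CD8+ 41.5% ± 4.93 and naive CD4+ 29.9% ± 15.4 (SD, n = 4 each). The 2 neighbours thus ran in opposite directions, one strong in CD4+ and absent in memory CD8+ cells, the other strongest in memory CD8+ cells. The difference of the second was 35.61 ± 4.01 points (SE, limma, adjusted p = 8.11e-05). At chr9:18135572-18138272 it was 40.57 ± 3.38 points (SE, limma, adjusted p = 1.18e-05), 17454 bp from chr9:18116684-18118117.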

How the data were processed

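Peak lists of 16 ATAC-seq libraries were used as deposited, in rheMac10 coordinates. The submitters' processing notes name cutadapt 1.18, Bowtie2 2.3.4.1 and Genrich 0.6, without settings, duplicate handling or any shift of reads, and peaks were listed per library. Each deposited peak has an area score (lowest 200.0), a summit −log10 p given by the authors (2.42 to 16.3) and a summit offset. The score belongs to its own list and was used only to rank peaks within it. Read depth is unknown.

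Peaks were merged at 1 bp of overlap. Strength was the percentage of the 24333 regions open in all 16 libraries with a lower score in the same list (ties 50%), and the highest score was used where a region held several peaks. limma 3.58.1 (R 4.3.3, trend) fitted the 26283 regions open in the 12 libraries outside memory CD8+, with 6 groups of population and time sharing 1 spread, two-sided, with Benjamini-Hochberg adjustment over all of them and a threshold of 0.05. The main fit had no term for the animal, so its spread is that between the libraries of the 2 animals within a group. Libraries of one animal after and before treatment entered as independent, and p-values do not measure the spread among further animals. An SD with n = 4 is over 4 libraries of 2 animals. Pairing comes from the titles, which name the same 2 animals in every group. File names number the second animal differently by population, and the titles were followed. The fit was also run on simulated data with independent noise in each library. Those data had no correlation within an animal and no calling limit, so the run does not check the p-values for either. Other steps used Python 3.11.15.

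Members, lists and tests were chosen with earlier results of these data known. The 8 members of highest and 3 of lowest mean strength, up to 8 per contrast and direction (3 by size where under 3 passed), the widest and narrowest 3 and groups of 3 were named. The neighbour comparison, memory CD4+ against naive CD8+ and the test by animal were added after the data were examined.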

Additional observations from a re-analysis of the deposited data

Results flagged for a closer look

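Of the sets of 4 libraries examined, 1 for each named region and population, 10 (8.77%) had 1 library far from the other 3 by Dixon's criterion, where chance gives about 1 in 20, or 5%. On chromosome 1, naive CD4+ after treatment in animal 2 had 66.2% at 215555586 and naive CD4+ before treatment in animal 2 had 71.8% at 206082644, both below the other 3. On chromosome 3 at 4006979, memory CD4+ after treatment in animal 1 had 7.05%, above the others. On chromosome 5 at 106504586, memory CD4+ and naive CD4+ before treatment in animal 2 had 41.2% and 67.2%, both above the others. On chromosome 19 at 666682, memory CD4+ and naive CD8+ before treatment in animal 1 had 22.8% and 17.2%, both above the others. On chromosome 14 at 58210176, memory CD4+ before treatment in animal 2 had 21.9%, above the others, and naive CD4+ after treatment in animal 2 had 7.02%, below them. On chromosome 6 at 128688213, memory CD4+ before treatment in animal 1 had 13.8%, above the others.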

How the results depend on the processing

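The number of regions was 296 with the stricter summit limit, 1091 in animal 1 alone, 1440 in animal 2 alone, 770 with both naive CD8+ lists of animal 1 left out, and 461 to 595 without 1 library. With the replicate block naive CD8+ cells were lower than naive CD4+ cells at 197 regions and higher at 6, and memory CD4+ cells were lower at 330. On percentiles of summit height the naive CD8+ decreases numbered 80 and the memory CD4+ increases 0, and the region on chromosome 1 at 205266077 reversed to −2.07. On the log2 area score 1 increase was left in each comparison, and the medians were −0.82 and −0.44 on the log2 scale, which is another unit. Left without both naive CD8+ lists of animal 1, naive CD8+ decreases were 55. Leaving out 1 library gave 195 to 273 decreases and 0 to 3 increases in memory CD4+ cells, 80 to 154 decreases and 1 to 4 increases in naive CD8+ cells, and a treatment median of −0.92 to 0.64. Groups of neighbours numbered 25 at 20 kb. The highest memory CD8+ share in libraries that did not choose the regions was 32.1% from animal 1, 17.2% from animal 2, 14.8% from the time before and 19.1% from the time after. The 28 named differences, at 27 regions, had 530 values under the alternatives, of which 481 kept direction and side of the threshold, 45 lost the call, 3 gained one and 1 reversed. Counts over all tested regions under these settings are not given, so a moved count is not shown to be particular to the 461. Where counts moved, the cause was not tested. Unknown depth limits each absence to the calling limit of its list.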
